A study of Mus musculus with 56 samples.

Results

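Cwc22 encodes a splicing factor, and its RNA was followed here in 2 brain regions of 29 inbred mouse strains. It is 1 of 18182 genes that the platform's gene table gives a probe set of their own. Every probe set assigned to Cwc22 alone was taken, which was 1 (1438278_a_at) of the 44951 that remained after control probe sets were left out. No probe set named Cwc22 together with another gene. With 1 probe set there is no second measurement of the gene on the same array. The gene was chosen by its log2 intensity in the strain WSB/EiJ, which stood apart in these same arrays, so its WSB/EiJ values are a description and carry no test. The tests concern what that choice did not use: the difference between the regions, the differences among the strains other than WSB/EiJ, and other genes.

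There were 27 arrays of nucleus accumbens, a region of the ventral striatum, and 29 of prefrontal cortex. Each array was hybridised with RNA pooled from 3 untreated male mice of 1 strain, bought at 8 to 10 weeks of age, and each pool of brains gave both regions. Only a cortex array was analysed for MRL/MpJ and for NZO/HILtJ, which leaves 27 strains with both regions. WSB/EiJ is an inbred strain derived from wild mice, and the other 28 strains serve as its comparison. No array was repeated, so a strain cannot be told apart from the pool of animals that stood for it. All values are deposited intensities on a linear scale after GCRMA, or their log2, with 1 log2 unit equal to a 2-fold difference.

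The CWC22 protein joins the spliceosome, the machine that removes introns, and is known in human cells to guide EIF4A3 onto the spliced messenger RNA. EIF4A3 is the helicase at the core of the exon junction complex, a protein mark left near splice junctions that later steps such as nonsense-mediated decay read. WSB/EiJ is known from other work to carry many extra copies of a segment of chromosome 2 that holds Cwc22. That amplified segment, called R2d2, is also known for being passed on in excess by heterozygous mothers. Copy number was not measured in these data.

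The only stretch of the gene that could be read from the sequences used here is its start. It is shown to give the position of the gene in the reference strain: chr2:77946307-77946606 of GRCm38.p6, minus strand, from RefSeq. The window runs from 250 bases before to 50 bases after the annotated start. Where the extra copies lie in WSB/EiJ was not examined. Capitals mark the letters ACTACAA or, for a match on the opposite strand, TTGTAGT.
Cwc22: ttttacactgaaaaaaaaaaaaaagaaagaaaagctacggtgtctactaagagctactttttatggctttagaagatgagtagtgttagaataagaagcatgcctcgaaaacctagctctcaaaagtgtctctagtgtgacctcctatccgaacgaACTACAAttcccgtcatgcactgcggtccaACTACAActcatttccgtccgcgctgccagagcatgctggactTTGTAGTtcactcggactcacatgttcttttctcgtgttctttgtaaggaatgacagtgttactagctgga
The motif occurs 3 times in this window, 2 times on the strand of the gene and 1 time on the other, with no overlap. At least 1 match is present in 3.24% of the 32851 promoter windows of the same length, and 3 or more matches in 4 of them, or 0.0122%. The motif was picked after the sequence had been read, and nothing in the arrays bears on its use.

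Cwc22 was far brighter in WSB/EiJ than in any other strain, in both regions. In accumbens its log2 intensity was 10.49 in WSB/EiJ, against a lowest of 5.60 (CBA/J), a median of 6.24 and a highest of 6.74 (C57BR/cdJ) in the 26 other strains. In cortex it was 9.20 in WSB/EiJ, against a lowest of 5.12 (NON/LtJ), a median of 5.56 and a highest of 5.98 (MA/MyJ) in the 28 other strains. The WSB/EiJ arrays thus lay outside the range of the others in both regions, with no overlap.

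On the linear scale the WSB/EiJ intensity was 1442 in accumbens, against a median of 75.5 in the other strains, a 19.1-fold difference. In cortex it was 588.2 in WSB/EiJ, against a median of 47.3, a 12.4-fold difference. Against the highest other strain the difference was 13.5-fold in accumbens and 9.31-fold in cortex. The distance from the median, 4.25 log2 units in accumbens and 3.64 in cortex, equalled 17.4 and 14.1 times the standard deviation (SD) of the other strains. That SD was 0.24 in accumbens (n = 26) and 0.26 in cortex (n = 28).

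The probe set was not among the dim ones in any strain. All 27 accumbens arrays and all 29 cortex arrays read it above log2 5, the level used here to set aside dim probe sets.

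**Figure D1:**
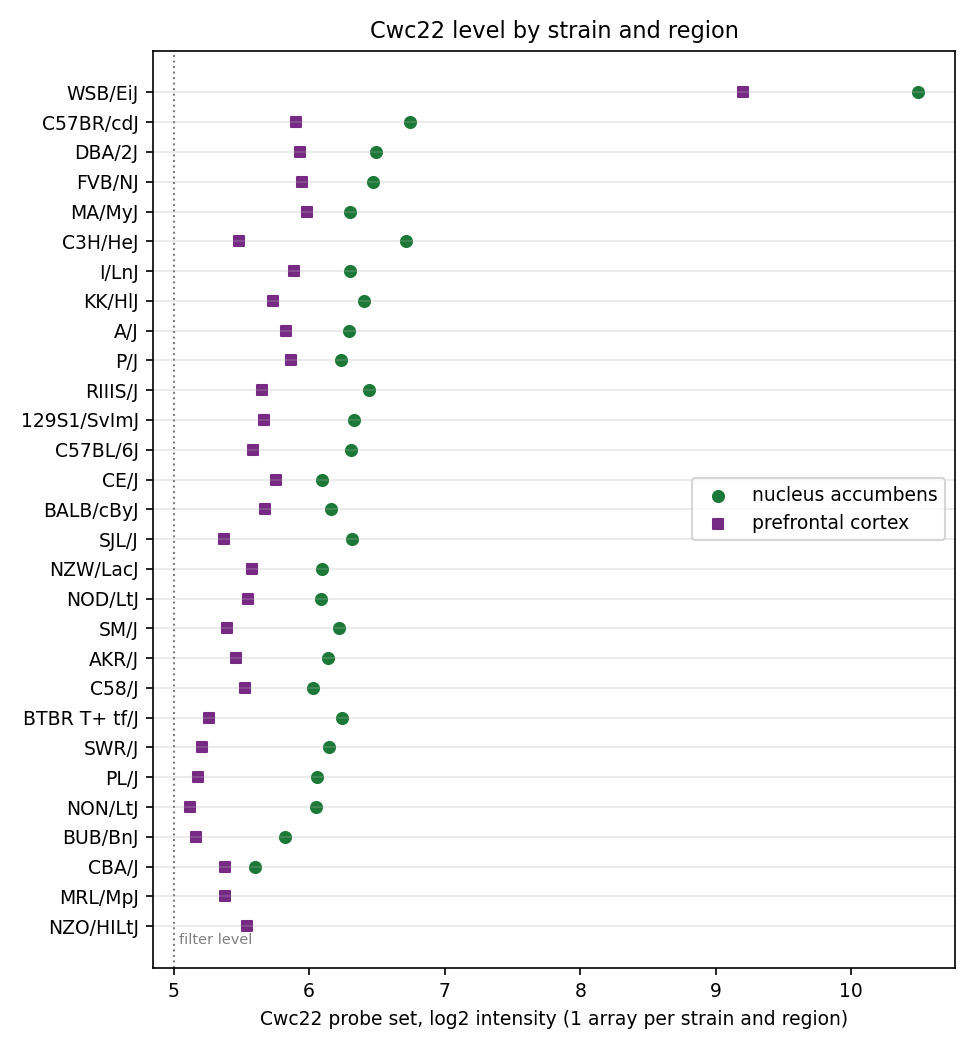
Log2 intensity of the Cwc22 probe set (x axis) in each strain (rows, by the mean of both regions, with the 2 strains profiled in cortex only at the bottom), 1 point per array, green circles for nucleus accumbens and purple squares for prefrontal cortex. The WSB/EiJ points, at 10.49 and 9.20, lie apart from all others, which span 5.12 to 6.74, and the dotted line marks log2 5.

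The size of this separation was set beside that of every other probe set. In all, 16056 probe sets were kept, those above log2 5 on at least 13 of the 54 arrays of the 27 strains with both regions. In 1582 of them the same strain was highest in both regions, and in 131 (0.816% of those kept) that strain was WSB/EiJ. Ranked by the gap to the next strain, taking the smaller of the 2 regional gaps, Cwc22 was first of the 1582 with 3.22 log2 units, and the next was a probe set without a gene name that was highest in A/J, with 2.69. Gaps of at least 1 log2 unit were found in 18 probe sets over all strains, and 3 of these were highest in WSB/EiJ, which is 0.0187% of those kept. This contrast chose the gene, so nothing further is read from the rank.

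The other 2 WSB/EiJ probe sets with a gap of at least 1 log2 unit had no single gene name in the platform's table. The first (1424609_a_at) read 13.37 in WSB/EiJ accumbens, against 10.22 to 11.43 in the other strains, and 13.16 in WSB/EiJ cortex, against 10.16 to 10.91. The second (1424607_a_at) read 13.42 in WSB/EiJ accumbens, against 10.21 to 11.49, and 13.11 in WSB/EiJ cortex, against 10.25 to 10.92.

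The named genes that followed had much smaller gaps. Nrxn3, a presynaptic adhesion protein, came next with a gap of 0.72 log2 units. It read 7.36 in WSB/EiJ accumbens, against 5.42 to 6.64 in the other strains, and 7.05 in WSB/EiJ cortex, against 4.88 to 6.14. Zfr, an RNA-binding zinc finger protein, had a gap of 0.63, and Tsc22d3, a glucocorticoid-induced regulator, of 0.62 and 0.59 on its 2 probe sets. Cd99l2, a membrane protein, had a gap of 0.56, and Rian, an imprinted noncoding RNA, of 0.53. All of these gaps were far smaller than the 3.22 of Cwc22. A single strain that was lowest in both regions by at least 1 log2 unit was found in 89 probe sets, 9 of them lowest in WSB/EiJ. In 7 of the 89 the gap was larger than that of Cwc22.

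**Figure D2:**
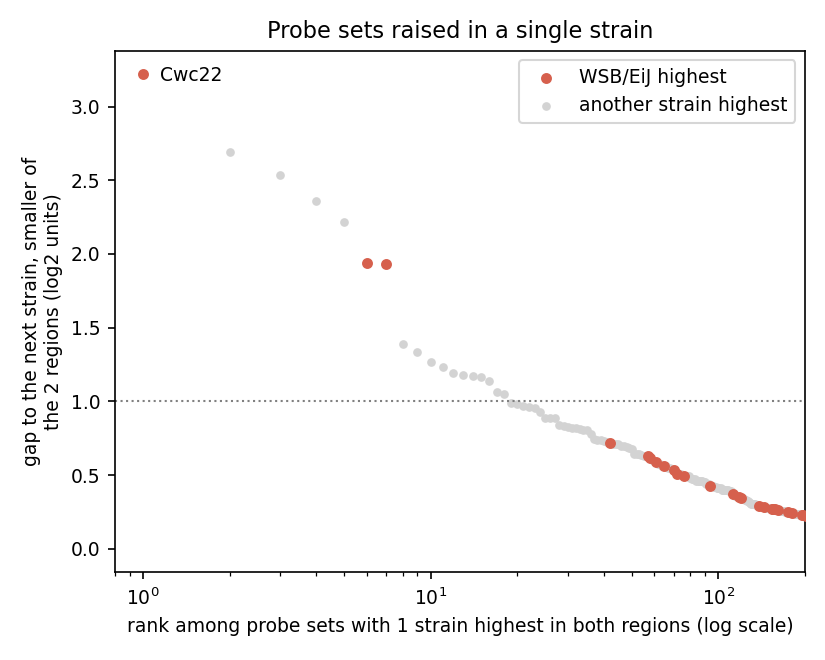
Gap between the highest strain and the next (y axis, log2 units, the smaller of the 2 regions) against rank (x axis, log scale, leading ranks only) for probe sets in which 1 strain was highest in both regions, in red where that strain was WSB/EiJ and in grey where it was another. Cwc22 is at the top left with 3.22, and 2 unnamed probe sets are the only other red points above the dotted line at 1.

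Cwc22 was also higher in accumbens than in cortex. Over the 27 strains its log2 intensity averaged 6.39 ± 0.85 in accumbens and 5.71 ± 0.74 in cortex (SD, n = 27 each), and over the 26 strains without WSB/EiJ 6.23 ± 0.24 in accumbens and 5.58 ± 0.27 in cortex (SD, n = 26 each). The difference was positive in 27 of 27 strains. In the model with strain as a block it was 0.68 log2 units (SE 0.05), or 1.60-fold, with a limma adjusted p of 4.08e-13. Without WSB/EiJ it was 0.65 (SE 0.05; limma adjusted p = 3.66e-13).

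Many probe sets passed this test, so the call itself says little: 83.3% differed between the regions, 51.8% being higher in accumbens. The median probe set was 0.13 log2 units higher in accumbens. Whether the regions were normalized in separate runs is not known, and such runs could not be told apart from the regions. Cwc22 exceeded the median probe set by 0.54 log2 units, or 1.46-fold, and 17.1% of the probe sets had a larger difference in the same direction. After quantile normalization of all arrays together the Cwc22 difference was 0.53 and the probe sets split into 6841 higher and 6333 lower, against 8320 and 5060 with the deposited values. With each array centred on its median the difference was 0.55 and the split was 6659 and 6521. With no filter on dim probe sets more were lower than higher, 17003 being higher and 18679 lower, and the Cwc22 difference was 0.68. In these bulk samples a different share of expressing cells and a different amount of RNA per cell cannot be told apart.

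The regional difference varied from strain to strain. It was 1.29 log2 units in WSB/EiJ, against a lowest of 0.22 (CBA/J), a median of 0.66 and a highest of 1.23 (C3H/HeJ) in the 26 other strains. WSB/EiJ thus had the largest difference, but C3H/HeJ came close to it. In linear terms the accumbens value of WSB/EiJ was 2.45 times its cortex value. The difference in WSB/EiJ rests on 1 array per region and was not tested.

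**Figure D3:**
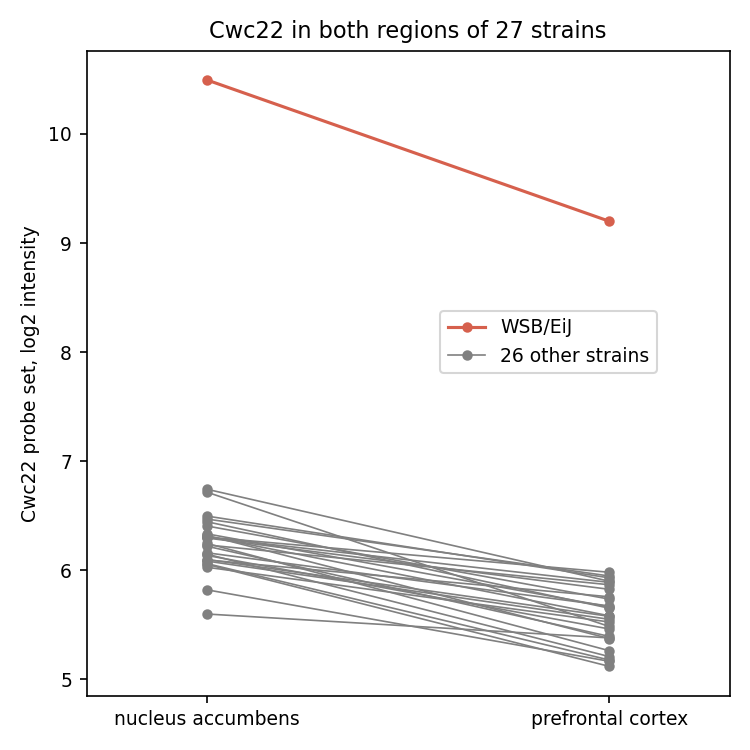
Log2 intensity of the Cwc22 probe set (y axis) in nucleus accumbens (left) and prefrontal cortex (right), with a line for each of 27 strains, red for WSB/EiJ and grey for the 26 others. Every line is higher at accumbens, by 1.29 log2 units in WSB/EiJ and by 0.22 to 1.23 in the others.

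Averaged over the arrays, the defining genes of each region matched its label. All 8 tested spiny neuron genes, such as Drd1 and Penk, were higher in accumbens, and all 7 tested cortical excitatory neuron genes, such as Slc17a7 and Fezf2, were lower there. Some arrays stood apart all the same. The mean of the spiny neuron genes was 10.31 in the MA/MyJ cortex array, against a median of 5.53 in the 28 cortex arrays other than WSB/EiJ, and 8.00 in the BALB/cByJ accumbens array, against a median of 11.05. The MA/MyJ cortex array was also the one with the highest cortex level of Cwc22 after WSB/EiJ. MA/MyJ, BALB/cByJ, CE/J and NON/LtJ were set aside as strains that stood apart, a list that does not take in every outlying array. The cortical excitatory neuron mean, for example, was highest among accumbens arrays in NOD/LtJ, at 5.32 against a median of 3.51, and NOD/LtJ was kept. Without the strains set aside and without WSB/EiJ, the Cwc22 difference was 0.68.

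The WSB/EiJ arrays themselves lay inside the range of the other strains in most cell type lists, but near an end in several. From the top, the microglial mean ranked 24 of 27 in accumbens and 27 of 29 in cortex. The interneuron mean ranked 5 and 3, the oligodendrocyte mean 23 and 18, and the choroid plexus mean 4 and 11. In WSB/EiJ accumbens the spiny neuron mean was 10.25, rank 24 of 27 from the top, against 8.00 to 11.27 in the other strains. In WSB/EiJ cortex the same mean was 5.84, rank 2 of 29, against 5.39 to 10.31. The cortical excitatory neuron mean was 8.75 in WSB/EiJ cortex, rank 7 of 29, against 8.01 to 8.94. The mean of 2 endothelial genes, Cldn5 and Flt1, was the lowest of all strains in both regions: 5.79 in WSB/EiJ accumbens, against 6.24 to 6.89, and 6.24 in WSB/EiJ cortex, against 6.45 to 7.38. In accumbens both genes were lowest in WSB/EiJ. In cortex only Cldn5 was, at 6.38 against 6.68 to 7.71, while Flt1 read 6.11, inside the 5.79 to 7.07 of the other strains. The mean of 4 astrocyte genes was the lowest in WSB/EiJ cortex, at 7.47 against 7.63 to 8.61, and at rank 19 of 27 in WSB/EiJ accumbens. In cortex this rested on Gfap, at 4.58 in WSB/EiJ against 6.18 to 7.76, while Slc1a3 read 10.02 against a median of 9.79, Aldh1l1 7.17 against 7.04 and Aqp4 8.12 against 8.20. The part of these shifts in the Cwc22 values was not tested.

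Among the strains other than WSB/EiJ, each represented by 1 pool, Cwc22 differed modestly but detectably between pools. The highest mean of the 2 regions was 6.32 in C57BR/cdJ, followed by 6.21 in DBA/2J and 6.21 in FVB/NJ. The lowest were 5.49 in CBA/J, 5.49 in BUB/BnJ and 5.59 in NON/LtJ. From CBA/J to C57BR/cdJ the span was 0.83 log2 units, or 1.78-fold, far less than the distance to WSB/EiJ at 9.85. C57BL/6J, the strain of the reference genome, stood near the middle at 5.95.

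The strain means had an SD of 0.22 over 26 strains, against a residual SD of 0.17 between the regions of a strain. The moderated F test over these 52 arrays passed (limma adjusted p = 0.0129), as it did for 17.9% of all probe sets. The SD of strain means was larger than that of Cwc22 in 35.9% of the probe sets. None of the 25 gaps between neighbours in the order of strain means exceeded the standard error of a difference between 2 strains, 0.17. The largest gap was 0.11. With 26 means in order, small gaps are likely in any case, so they cannot decide whether the strains form classes.

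By region the order had a few exceptions. In accumbens, C57BR/cdJ at 6.74 and C3H/HeJ at 6.72 led the other strains, and CBA/J at 5.60 and BUB/BnJ at 5.82 closed the order. In cortex, MA/MyJ at 5.98, FVB/NJ at 5.95 and DBA/2J at 5.93 led, and NON/LtJ at 5.12, BUB/BnJ at 5.17 and PL/J at 5.18 closed it. C3H/HeJ ranked 3 of 27 in accumbens, counted with WSB/EiJ, and 19 of 29 in cortex, at 5.49. The 2 strains without an accumbens array lay inside the cortex range, NZO/HILtJ at 5.54 and MRL/MpJ at 5.38.

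The differences between the pools of the strains recurred between the regions. Over the 26 strains without WSB/EiJ, which was left out because it lies apart, the accumbens and cortex levels of Cwc22 correlated with Pearson's r = 0.54 (two-sided permutation test, 100000 resamples, p = 0.00381) and Spearman's rho = 0.59 (p = 0.00193). This was the only relation of its kind that was computed. Without NON/LtJ and BUB/BnJ, the 2 strains farthest from the cortex median, r was 0.45 (p = 0.0239). Both values of a strain come from the same pool of brains, so the recurrence cannot be assigned to strains rather than pools. The F test used the same 52 values, so the correlation is not separate evidence.

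**Figure D4:**
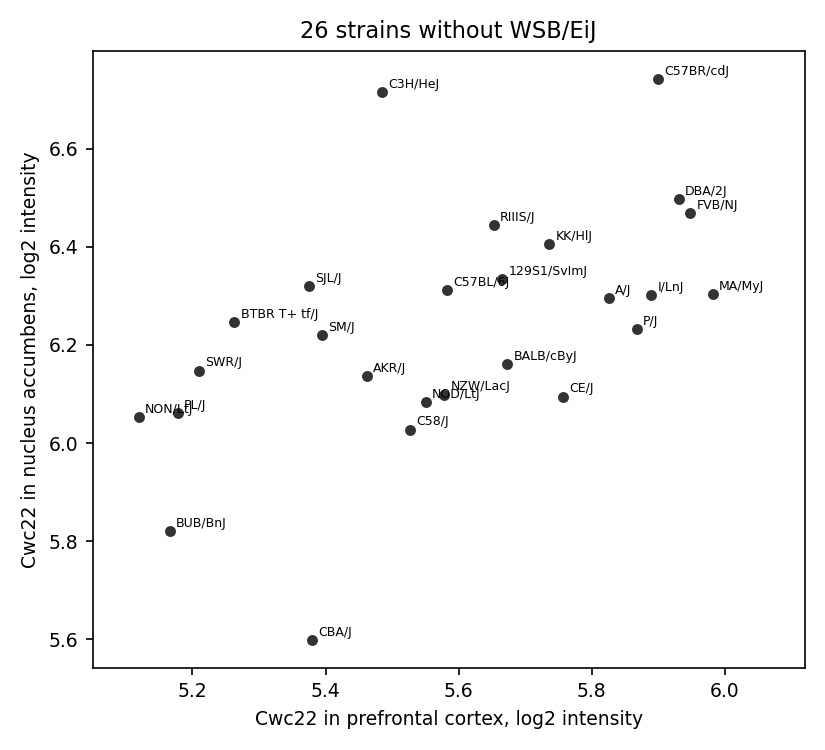
Log2 intensity of Cwc22 in nucleus accumbens (y axis) against prefrontal cortex (x axis), 1 point for each of the 26 strains other than WSB/EiJ. C57BR/cdJ, DBA/2J and FVB/NJ lie at the upper right and BUB/BnJ at the lower left, while C3H/HeJ (high in accumbens only) and CBA/J (low in accumbens) lie off the trend of r = 0.54.

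Cell composition was set beside these levels. Within each region and without WSB/EiJ, Cwc22 was compared with the means of the spiny neuron, cortical neuron, oligodendrocyte, astrocyte and microglial genes, 10 relations in all. None passed adjustment. The largest r was with the spiny neuron mean in cortex (r = 0.35, permutation p = 0.0166, adjusted p = 0.166, 28 arrays), and it was 0.32 without MA/MyJ and DBA/2J. Spearman's rho there was 0.44 (permutation p = 0.0188, adjusted p = 0.178). In accumbens the same mean gave r = 0.21 (permutation p = 0.276, adjusted p = 0.511, 26 arrays) and rho = 0.42 (permutation p = 0.0357, adjusted p = 0.178).

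No gene near Cwc22 in the reference order of chromosome 2 was called higher in WSB/EiJ. Neighbours were taken by that order, and the position of the extra copies in WSB/EiJ was not examined. The 10 nearest genes with a kept probe set on each side were compared between WSB/EiJ and the 26 other strains, on the mean of both regions. In this limma fit the spread between the other strains is the error, and the lone WSB/EiJ mean is assumed to vary like theirs. Of all other probe sets 1.15% were called at an adjusted p under 0.05, of which 0.274% were higher and 0.872% lower in WSB/EiJ. This balance depends on the filter: with no filter on dim probe sets, 737 were higher and 238 lower. Of the 20 neighbours, 0 were higher and 0 lower, and 0 had an unadjusted p under 0.05, against 1675 of 16055 over all other probe sets. A count of 0 among 20 genes is near the 1.15% called among all other probe sets, so nothing particular to the neighbours is read from it. Their median difference was -0.01 log2 units, against -0.02 over all other probe sets and 3.94 for Cwc22 itself.

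Zfp385b and Ube2e3, named for their position, are the closest measured genes in the reference order, 1 on each side. Zfp385b, a zinc finger protein gene, read 8.04 in WSB/EiJ accumbens, against a median of 8.14 in the other strains, and 7.37 in WSB/EiJ cortex, against 7.41. Ube2e3, a ubiquitin-conjugating enzyme gene, read 9.27 in WSB/EiJ accumbens, against 9.13, and 9.66 in WSB/EiJ cortex, against 9.58. Both genes lay inside the range of the other strains in both regions. The difference was -0.01 for Zfp385b (SE 0.31) and 0.11 for Ube2e3 (SE 0.12).

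The neighbours with the largest differences were Rbm45, an RNA-binding protein gene, with -1.03 (SE 1.09, limma adjusted p = 0.835), Osbpl6, an oxysterol-binding protein gene, with 0.41 (SE 0.23, limma adjusted p = 0.562), Pde1a, a calmodulin-dependent phosphodiesterase gene, with -0.38 (SE 0.22, limma adjusted p = 0.59), and Itgav, an integrin subunit gene, with -0.30 (SE 0.19, limma adjusted p = 0.644). Rbm45 varied widely in the other strains as well, from 5.22 to 8.48 in accumbens and from 5.52 to 8.13 in cortex. Of the 60 nearest measured genes on each side, 0 of 120 were higher and 1 was lower in WSB/EiJ, with a median of -0.02. The gene that read lower was Ypel4, named after its value was seen, and sequence differences under its probes were not examined. It read 4.90 in WSB/EiJ accumbens, against 5.03 to 6.29 in the other strains, and 4.73 in WSB/EiJ cortex, against 6.03 to 6.91 (difference -1.29, SE 0.21, limma adjusted p = 0.000432). Without MA/MyJ, BALB/cByJ, CE/J and NON/LtJ, where 2.7% of all probe sets were called, the counts for the 120 neighbours were again 0 higher and 1 lower, again Ypel4. There, 3 of the 20 nearest genes and 16 of the 120 had an unadjusted p under 0.05, against 2458 of 16055.

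**Figure D5:**
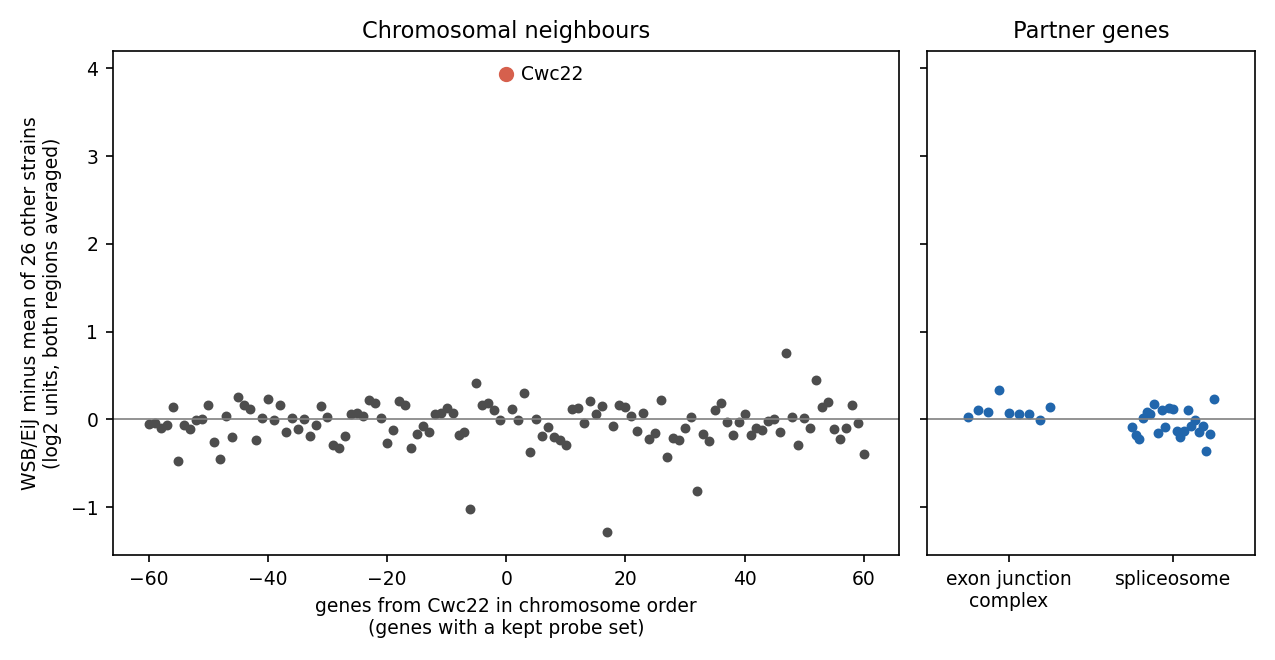
WSB/EiJ minus the mean of the 26 other strains (y axis, log2 units, both regions averaged) for the 60 nearest measured genes on each side of Cwc22 in chromosome order (left panel, 1 point per gene, Cwc22 in red) and for measured genes of the exon junction complex and the spliceosome (right panel). Cwc22 lies at 3.94 and its 120 neighbours between -1.29 and 0.75, and the partner genes lie between -0.37 and 0.34.

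Genes whose products act with CWC22 were put through the same test, which called 1.15% of all other probe sets, with 1675 of 16055 at an unadjusted p under 0.05. Of 17 genes of the exon junction complex and of nonsense-mediated decay, 9 had a kept probe set, and 0 were higher and 0 lower in WSB/EiJ (0 at an unadjusted p under 0.05), with a median of 0.07. Eif4a3, the direct partner, had no kept probe set and was not tested. Acin1, a peripheral component of the complex, had the largest difference, 0.34 (SE 0.20, limma adjusted p = 0.614). It read 7.84 in WSB/EiJ accumbens, against a median of 7.47 in the other strains, and 7.80 in WSB/EiJ cortex, against 7.42. Smg6, an endonuclease of nonsense-mediated decay, followed with 0.14, the core component Casc3 with 0.11 and Rnps1 with 0.08.

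Of 28 spliceosome genes, 23 were tested, and 0 were higher and 0 lower in WSB/EiJ (1 at an unadjusted p under 0.05), with a median of -0.08. Ccdc12 had the largest difference, -0.37 (SE 0.14, limma adjusted p = 0.27). It read 7.19 in WSB/EiJ accumbens, against a median of 7.52, and 6.98 in WSB/EiJ cortex, against 7.42. The helicase gene Dhx35 followed with 0.23, the ubiquitin ligase gene Prpf19 with -0.23 and the helicase gene Aqr with -0.20. Without the same 4 strains, 1 of the 9 exon junction complex genes and 3 of the 23 spliceosome genes had an unadjusted p under 0.05, against 2458 of 16055. Small differences could have been missed: in simulated data with this design, 56% of probe sets shifted by 1 log2 unit in WSB/EiJ were called, 6% of those shifted by 0.5 and 0% of those shifted by 0.25.

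Between the regions, both lists held genes called higher and genes called lower in accumbens. Of the 23 spliceosome genes, 15 were higher in accumbens and 1 was lower, the median being 0.23, against 51.8% higher and 31.5% lower among all probe sets. Whether the spliceosome shares differ from those of all probe sets was not tested. Dhx35 was 0.49 higher (SE 0.07) and Aqr 0.36 higher (SE 0.05), and Bud31, named after its value was seen, was the gene that fell, by 0.22. Of the 9 exon junction complex genes, 4 passed as higher and 3 as lower, the median being 0.00. These 2 counts are near the shares among all probe sets, so nothing particular to this list is read from them. Both lists were fitted on the deposited values only. After quantile normalization of all arrays together, the lean of all probe sets towards accumbens was smaller (6841 higher and 6333 lower), and the lists were not refitted there. Casc3 was 0.28 higher and Rnps1 fell by 0.39. Among the 26 strains without WSB/EiJ, 2 of the 23 and 2 of the 9 passed the strain test, against 17.9% of all probe sets. They were Aqr and Rbm22 of the spliceosome, and Casc3 and Rnps1 of the exon junction complex, named for passing.

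The genes with the most similar pattern depended on whether WSB/EiJ was included. Likeness was Pearson's r over all 56 arrays after subtraction of each region's median, and arrays of 1 strain share their animals. With WSB/EiJ the highest values among named probe sets were 0.68 and 0.64 for 2 probe sets of Psmf1, a proteasome inhibitor gene, 0.62 for Nrxn3, 0.61 for Zbtb16 and 0.61 for Aldh18a1. All 5 of these probe sets were higher in WSB/EiJ than in the other strains by 0.75 to 1.43 log2 units. That follows from how they were picked, because the WSB/EiJ arrays dominate the Cwc22 values. The unnamed 1424609_a_at and 1424607_a_at had larger r, 0.83 and 0.81. The most negative values were -0.89 for Wwc2 and -0.89 for Atpif1, both lower in WSB/EiJ. Without WSB/EiJ, over 54 arrays, the highest values were 0.60 for Fech, the last enzyme of haem synthesis, 0.51 for Snord104, 0.51 for Dbp, a clock-controlled transcription factor gene, 0.51 for Zxdb and 0.49 for Ppp1cb. None of these 5 was among the 5 of the first list.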

How the data were processed

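The members and gene lists were chosen with earlier results of these data known. The authors' deposited values are probe set intensities on a linear scale, and the submitters' processing notes name GCRMA, with no version given in the sources read here. Normalization may have been run per region, which was not tested. The intensity at rank 116 from the top was between log2 12.40 and 12.51 on accumbens arrays and between 12.26 and 12.36 on cortex arrays. The median intensity, on the linear scale and not in log2, was 9.66 to 10.14 on accumbens arrays and 9.94 to 10.43 on cortex arrays. The number of arrays limits the precision.

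The log2 of the deposited intensities was taken, without a pseudocount. Controls, 64 of 45015 probe sets, were set aside. Of the rest, 34880 had 1 symbol in the platform's annotation, 923 had several and 9148 had none. Names were updated through gene identifiers, and 0 of 34677 changed. Probe sets above log2 5 on at least 13 of 54 arrays were kept. Every kept probe set was fitted, so that p-values adjust over 16056.

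limma 3.58.1 in R 4.3.3 gave the moderated t for region, with strain as block. Per the description of the study design, a strain's 2 samples share their animals, so the pairing comes from the design. The same package gave the moderated F over 26 strains, and WSB/EiJ against the others on 27 strain means. Benjamini-Hochberg adjustment was used at 0.05. Named genes followed a fixed rule: at most 4 per list by size, the 5 most similar probe sets and the 5 named genes with the largest WSB/EiJ gap. A gene with several probe sets was represented in the lists by its brightest kept one. Neighbours came from the RefSeq gene order of GRCm38.p6, with no coordinates used for the arrays. Python 3.11.15, with numpy 2.4.6 and pandas 2.3.3, gave the correlations.

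The fits were tested on simulated data with the real means and spreads of 16056 probe sets. Region shifts of 0.25, 0.5, 1 and 2 log2 units were called in 66%, 92%, 100% and 100%, strain SDs of these sizes in 60%, 86%, 100% and 100%, and a WSB/EiJ shift of 2 in 90%. Alternatives were other filters, normalizations, variance models, strains left out, 1 probe set per gene and no replicate block.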

Additional observations from a re-analysis of the deposited data

How the results depend on the processing

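The Cwc22 results kept their direction and their side of the threshold under every alternative that was run, except that a filter at log2 7 left Cwc22 itself out. The region difference lay between 0.53 and 0.68 over 9 alternatives, and between 0.65 and 0.70 with each of the 27 strains left out in turn. With no replicate block, so without the pairing by strain, it was 0.68 (SE 0.21, limma adjusted p = 0.00332), the highest adjusted p of its alternatives. The SD of strain means lay between 0.22 and 0.23 over 6 alternatives, and between 0.21 and 0.23 with each of 26 strains left out, where the adjusted p was highest without BUB/BnJ (0.0357). The WSB/EiJ distance was 4.25 to 4.31 in accumbens and 3.62 to 3.66 in cortex, and the correlation between regions 0.45 to 0.66. Leave-one-out fits, the correlation without C3H/HeJ, CBA/J and MA/MyJ and the subtraction of the median feature (0.54) were chosen after seeing the data.

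Counts over all probe sets moved with the filter and, for WSB/EiJ, with the arrays used, where the cause was not tested. Between regions 13380 were called, 35682 with no filter and 7054 at log2 7. Between strains without WSB/EiJ 2870 were called, and 1459 at log2 7. In WSB/EiJ 184 were called, against 975 with no filter, 63 at log2 7, 434 without MA/MyJ, BALB/cByJ, CE/J and NON/LtJ, 109 on cortex arrays alone and 118 on accumbens arrays alone. The gene lists had 0 higher calls with and without those 4 strains, a check added after seeing the data.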
